A study of Gallus gallus with 6 samples.

Results

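The ATP-binding cassette (ABC) transporters are described here in the liver of 3 juvenile hens killed at 20 weeks of age, called L20, and 3 laying hens killed at 30 weeks, called L30. Members were the genes of the deposited table whose short name is ABC followed by a subfamily letter from A to G and a number, which takes in 33 of the 14078 genes, and 30 of them in 7 subfamilies are reported. All 6 birds were females labelled as Lushi chicken, which the study's methods call Lushi green shell chicken, every hen gave 1 RNA-Seq library, and no bird carried a transgene or received an agent. Age and the start of lay changed together between the groups, so their parts in any difference below cannot be told apart. No sequence is shown, because no chicken sequence was to hand.

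ABC transporters use the energy of ATP to move a substrate across a membrane, and in the liver many of them sit either on the canalicular face of the hepatocyte, where they load bile, or on the face towards the blood. The ABCA and ABCG subfamilies mostly move lipids and sterols, ABCB and ABCC move drugs, conjugates, bilirubin and peptides, and ABCD carries fatty acyl-CoA or cobalamin across the membranes of peroxisomes and lysosomes. ABCE and ABCF proteins have the ATP-binding domains but no membrane part, and act in translation. These roles are known mainly from mammals and yeast.

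The values are deposited FPKM, in which the fragments of a gene are scaled by its exon length and by a factor for the library. Reads recovered from the scaled counts of the same table numbered 13764705 to 21570330 per hen, and 0.121 to 0.217% of them fell on the 30 members. The 3 genes APOVLDLII, VTG2 and VTG1 (listed as TPRXL) encode yolk precursor proteins. They took 14.2 to 16.7% of the recovered reads in the laying hens and at most 0.0279% in the juvenile hens. The FPKM were not a plain share of the recovered reads. For ABCD3, L20 hen 1 and L30 hen 2 had 128 and 126 FPKM from 10005 and 6826 reads, with recovered totals of 14432548 and 13764705. The part of the yolk genes in the members' FPKM was not tested. The hepatocyte markers were present in every hen, with 12 of 13 listed genes in the table and summed levels of 52910 to 55550 FPKM in juvenile and 39060 to 53960 FPKM in laying hens. Limma called AHSG, ALB and FABP1 of them higher and APOA1, FGA, FGB and FGG lower in laying hens, and their part in the members' values was not tested. Groups were compared with limma on log2(FPKM + 1) over all 9732 genes that averaged at least 1 FPKM. Log2 fold changes are differences of these values, L30 over L20, with their standard error, and the added 1 makes them too small for genes of low FPKM. A gene was called where limma's unadjusted p did not exceed 0.05 (DE). It was SDE where the Benjamini-Hochberg adjusted value did not exceed 0.05 either and the mean FPKM of the groups differed by a ratio of 2 or more, or 0.5 or less. An exact permutation test of 3 hens against 3 cannot go below p = 0.1, two-sided, which it gave for every member whose groups did not overlap.

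Of the 30 members, 24 passed the FPKM filter and 6 did not (ABCA12, ABCA7, ABCA4, ABCC9, ABCG1 and ABCG4). Of the 24 tested, 4 were called higher in laying hens (the gene named ABCA3, ABCD4, ABCG5 and ABCG8), 2 were called lower (ABCC1 and ABCF2) and 18 were not called. This is 25% of the tested members, beside 22.7% of all tested genes (11.0% called higher and 11.7% called lower), so the share was near the background. Only the gene named ABCA3 met the SDE rule in this fit, which 2.75% of all tested genes met (1.82% higher and 0.935% lower). The study used another test, Cuffdiff, and its SDE genes include ABCA3, ABCG1, ABCG5 and ABCG8. On recovered reads edgeR called 8 of 28 tested members (23.1% of its 11199 tested genes), of which 3 were SDE (3.83%). DESeq2 called 7 of 30 tested members (19.6% of 14078 genes), of which 4 were SDE (6.24%). For edgeR and DESeq2 the SDE rule used the fold change of the model in place of the ratio of mean FPKM. The groups did not overlap in 9 of the 24 (37.5%), against 30.0% of all tested genes. The median log2 fold change of the tested members was 0.08 and that of all tested genes −0.04, and the median absolute change was 0.28 against 0.23. Over all 30 members, 13 had their higher mean FPKM in L30 and 17 in L20.

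**Figure D1:**
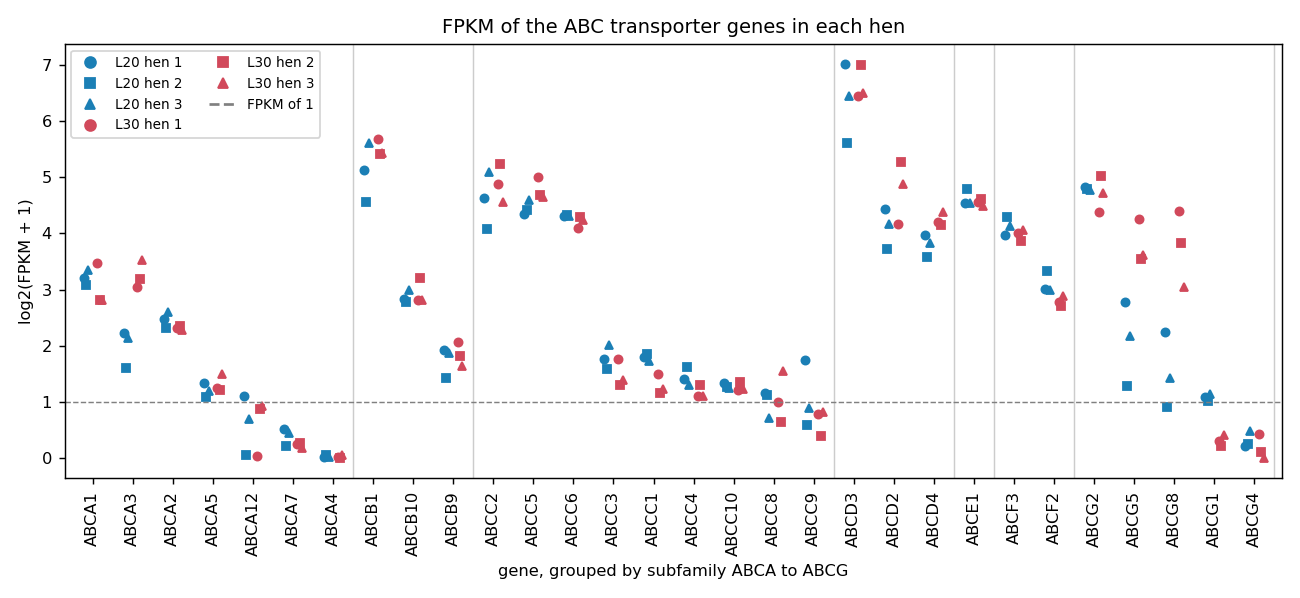
FPKM of the 30 ABC transporter genes in each hen, as log2(FPKM + 1) on the vertical axis, with genes on the horizontal axis grouped by subfamily and ordered by mean FPKM within it. Blue points are L20 hens, red points are L30 hens, and circle, square and triangle are hens 1, 2 and 3. ABCD3 lay highest, and ABCG5 and ABCG8 had their red points above their blue ones. The 6 genes below the filter lay near or under the dashed line at an FPKM of 1, except ABCC9 in L20 hen 1 (2.35 FPKM).

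The levels spanned a wide range, from a mean of 93.6 FPKM over the 6 hens for ABCD3 to 0.0260 for ABCA4. ABCD3 alone made 25.5% of the summed FPKM of the 30 genes. It was followed by ABCB1 at 39.6, ABCC2 at 26.8, ABCG2 at 26.1, ABCC5 at 23.8, ABCE1 at 23.1, ABCD2 at 22.1 and ABCC6 at 18.2 FPKM. ABCD3 was above ABCB1, and ABCB1 above ABCC2, in 6 of 6 hens, whereas ABCC2 was above ABCG2 in only 3 of 6. From ABCC2 down to ABCC6 each neighbouring pair stood in this order in 3 to 5 of the 6 hens, so neighbours were not separated beyond the spread between hens. Genes farther apart in the order could be, as ABCC6 lay below ABCG2, ABCC5 and ABCE1 in 6 of 6 hens. The place of ABCC5 rests on a short gene model with 204 to 458 reads per hen, against 1320 to 2477 for ABCC6.

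The ABCG subfamily held the largest rises. In mammals ABCG5 and ABCG8 form a heterodimer that secretes cholesterol and plant sterols from the hepatocyte into bile. ABCG5 (ENSGALG00000009955) stood at 5.90, 1.44 and 3.52 FPKM in L20 hens 1, 2 and 3 and at 18.1, 10.6 and 11.2 FPKM in L30 hens 1, 2 and 3. Each laying hen lay above each juvenile hen, L20 hen 2 was the lowest and L30 hen 1 the highest. The mean rose 3.68-fold, with a log2 fold change of 1.72 ± 0.40 (SE, n = 3 hens per group, limma, Benjamini-Hochberg adjusted p = 0.0748). ABCG8 (ENSGALG00000009958) stood at 3.72, 0.893 and 1.70 FPKM in L20 hens 1, 2 and 3 and at 20.2, 13.2 and 7.23 FPKM in L30 hens 1, 2 and 3. It had the same lowest and highest hen as ABCG5, and the groups did not overlap. Its mean rose 6.43-fold, with a log2 fold change of 2.23 ± 0.45 (limma, adjusted p = 0.0532).

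Both genes passed the unadjusted threshold with each hen left out in turn, and neither met the adjusted one in the limma fit. Under edgeR's quasi-likelihood test on recovered reads the log2 fold change was 1.93 for ABCG5 (adjusted p = 0.0777) and 2.74 for ABCG8 (adjusted p = 0.0481). The counts behind them ran from 208 to 2515 reads for ABCG5 and from 55 to 1197 for ABCG8. The ratio of ABCG5 to ABCG8 FPKM was 1.59, 1.61 and 2.07 in juvenile hens 1, 2 and 3, and in laying hens 1, 2 and 3 it was 0.898, 0.806 and 1.55 (exact permutation test, p = 0.1, the smallest possible).

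The table lists ABCG5, ABCG8 and DYNC2LI1, a dynein chain gene, under 1 shared span of galGal4, chromosome 3 from 24548140 to 24598091. How reads were divided among entries that share a span is not stated in the sources used here, so the split between ABCG5 and ABCG8 is uncertain. DYNC2LI1 lay at 0.219 to 0.916 FPKM, below the filter, with overlapping groups and a lower mean in the laying hens. The RefSeq annotation of the later assembly GRCg7b has them next to each other as separate genes, in the order DYNC2LI1, ABCG5 and ABCG8.

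**Figure D2:**
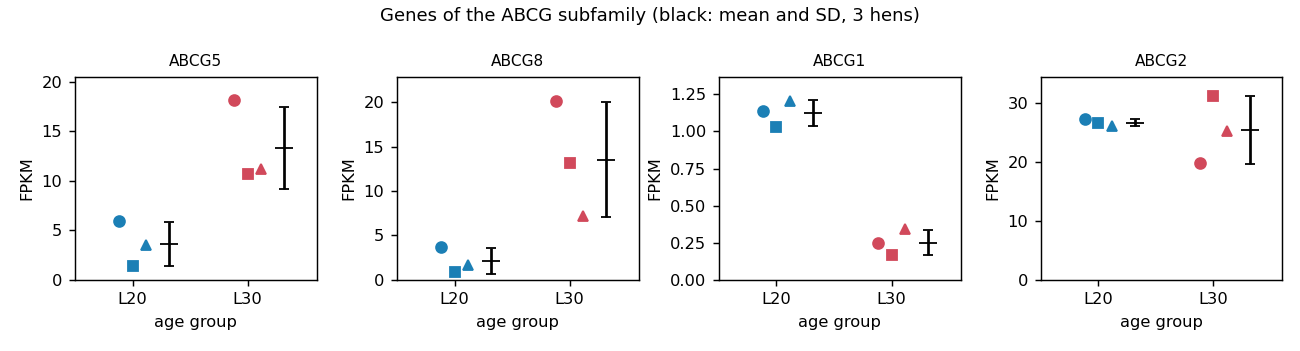
FPKM on the vertical axis of ABCG5, ABCG8, ABCG1 and ABCG2 in the L20 and L30 groups, each panel with its own scale from 0. Circle, square and triangle are hens 1, 2 and 3 of a group (blue L20, red L30), and the black mark gives the mean and SD of 3 hens. ABCG5 and ABCG8 were higher in each laying hen, ABCG1 was lower in each, and the groups overlapped in ABCG2.

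ABCG1, which in mammals exports cholesterol to high-density lipoprotein and is prominent in macrophages, ran the other way. It lay at 1.14, 1.03 and 1.21 FPKM in L20 hens 1, 2 and 3 and at 0.246, 0.166 and 0.339 FPKM in L30 hens 1, 2 and 3, from 60, 69 and 71 reads against 16, 6 and 14. Every laying hen was thus well under every juvenile hen, at a ratio of means of 0.223. Its mean of 0.688 FPKM kept it out of the main test, and since a gene with a high level in 1 group only can pass or miss a filter through that group, its test is given from the fits without that filter. The log2 fold change was −0.77 ± 0.08 in limma with no filter (adjusted p = 0.0149), where 19.8% of all genes were called and 1.32% were SDE. It was −2.10 in edgeR on recovered reads (adjusted p = 0.0214). The edgeR fit has its own filter on reads, which a gene can pass through 1 group. DESeq2 on recovered reads tested all 14078 genes, of which 6.24% were SDE. It gave ABCG1 a log2 fold change of −2.12 (adjusted p = 8.18e-06).

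Some marker lists of other liver cells were lower in the laying hens as well. Over all tested genes limma called 11.7% lower and 11.0% higher. Of 11 tested macrophage markers 8 were lower and 0 higher at the unadjusted threshold of limma, and they summed to 1374 to 1661 FPKM in the juvenile and 861 to 1094 FPKM in the laying hens. Of 12 tested endothelial markers 4 were lower and 1 higher (115.8 to 134.6 against 66.6 to 104.8 FPKM), and of 8 tested lymphocyte and thrombocyte markers 4 were lower (50.5 to 52.5 against 31.1 to 36.8 FPKM). Limma called 0 of 5 tested bile duct markers (14.88 to 22.41 against 10.28 to 37.58 FPKM) and 0 of 3 tested erythrocyte markers (38.43 to 159.1 against 56.82 to 131.5 FPKM). No listed marker in the table was at 0 in all hens. In bulk liver, fewer cells of a type and less RNA per cell cannot be told apart, and the part of these cells in the ABCG1 values was not tested.

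ABCG2, a canalicular exporter of drugs and urate in mammals, had the highest mean of its subfamily. It lay at 27.3, 26.6 and 26.2 FPKM in L20 hens 1, 2 and 3 and at 19.8, 31.3 and 25.3 FPKM in L30 hens 1, 2 and 3. The laying hens lay on both sides of the juvenile ones, and the change was −0.09 on the log2 scale (95% confidence interval −0.53 to 0.35). It became 0.07 without L30 hen 1. ABCG4, a sterol transporter of the brain in mammals, had 0 to 15 reads per hen and was listed at 0 in L30 hen 3. Summed over its 5 genes, the ABCG subfamily had 30.2 to 38.2 FPKM in juvenile and 44.1 to 58.7 FPKM in laying hens.

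**Figure D3:**
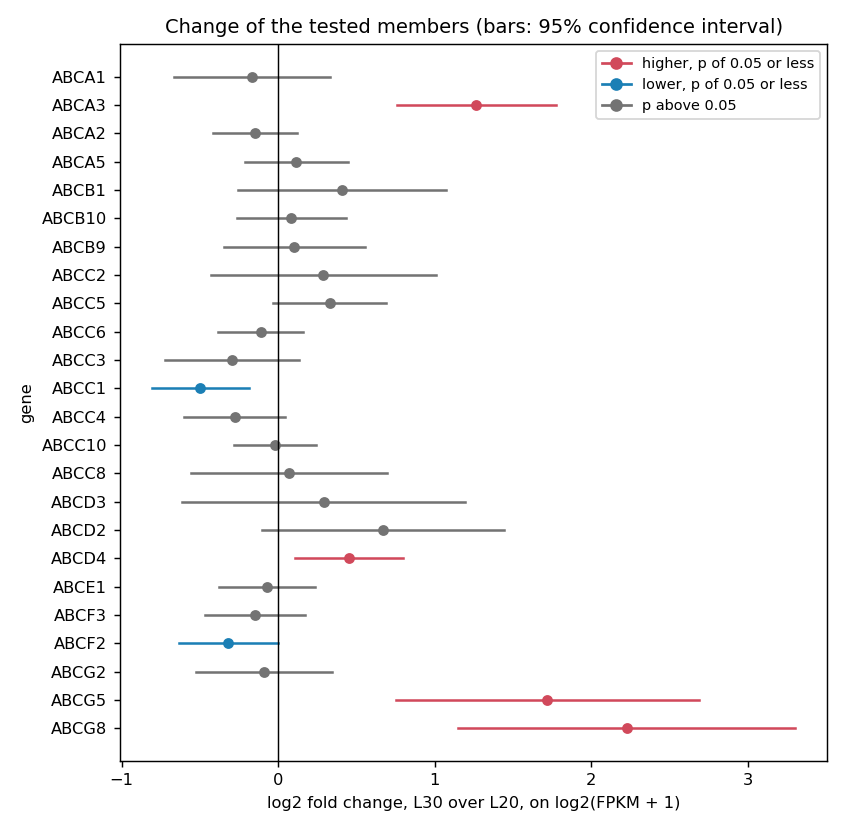
Log2 fold change of the 24 tested members on the horizontal axis (L30 over L20, on log2(FPKM + 1), limma) with its 95% confidence interval as a bar, 1 gene per line. Red marks the 4 genes called higher, blue the 2 called lower and grey the 18 not called at an unadjusted p of 0.05. ABCG8, ABCG5 and the gene named ABCA3 lay farthest to the right, and the upper limit of ABCF2 lay close to 0.

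Among the ABCA genes, which move phospholipids and sterols, 1 of 4 tested was called, beside 22.7% of all tested genes. The gene named ABCA3 (ENSGALG00000021395, chromosome 18, 8206966 to 8226132, galGal4) lay at 3.67, 2.05 and 3.40 FPKM in L20 hens 1, 2 and 3 and at 7.28, 8.14 and 10.6 FPKM in L30 hens 1, 2 and 3. The groups did not overlap, and the lowest laying hen was well above the highest juvenile hen. The mean rose 2.84-fold, with a log2 fold change of 1.27 ± 0.21 (limma, Benjamini-Hochberg adjusted p = 0.0388), from 237 to 825 reads per hen. When any 1 of the 6 hens was left out the gene stayed called, but the adjusted p ran from 0.0539 to 0.124, so each of these 6 fits lost the SDE call for this gene. Over all 9732 tested genes, 268 were SDE in the main limma fit. Without L30 hen 3 the number was 386, and in the other fits with a hen left out it was 64 to 180.

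For the gene named ABCA3, name and place did not go together. It lies between the unnamed ENSGALG00000021399 and ABCA5, and in that interval of chromosome 18, between FAM20A and MAP2K6, RefSeq GRCg7b lists ABCA8, ABCA9 and ABCA5. RefSeq places ABCA3, the phospholipid pump of lung surfactant in mammals, on chromosome 14. There the table holds an unnamed gene (ENSGALG00000001967, chromosome 14, 13567402 to 13590222, galGal4) described as sub-family A member 3. This second gene had 12.8, 14.5 and 15.6 FPKM in L20 hens 1, 2 and 3 and 11.3, 11.0 and 10.6 FPKM in L30 hens 1, 2 and 3, lower in each laying hen (log2 fold change −0.35 ± 0.12, called in limma, adjusted p = 0.149). The 2 entries with ABCA3 as name or description thus moved in opposite directions, and the rise belongs to the chromosome 18 gene, whatever its name. All 30 member symbols were found in RefSeq GRCg7b, and the other 29 lay on the same chromosome in both.

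The neighbours on chromosome 18 did not share the rise in a call. ENSGALG00000021399 lay at 15.4, 2.82 and 6.48 FPKM in L20 hens 1, 2 and 3 and at 4.79, 12.1 and 16.6 FPKM in L30 hens 1, 2 and 3, with a log2 fold change of 0.50 (95% confidence interval −0.998 to 2.01). ABCA5, a lysosomal member, lay at 1.13 to 1.54 FPKM in juvenile and 1.32 to 1.84 FPKM in laying hens, with a log2 fold change of 0.12 (−0.21 to 0.44). The groups overlapped in both.

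**Figure D4:**
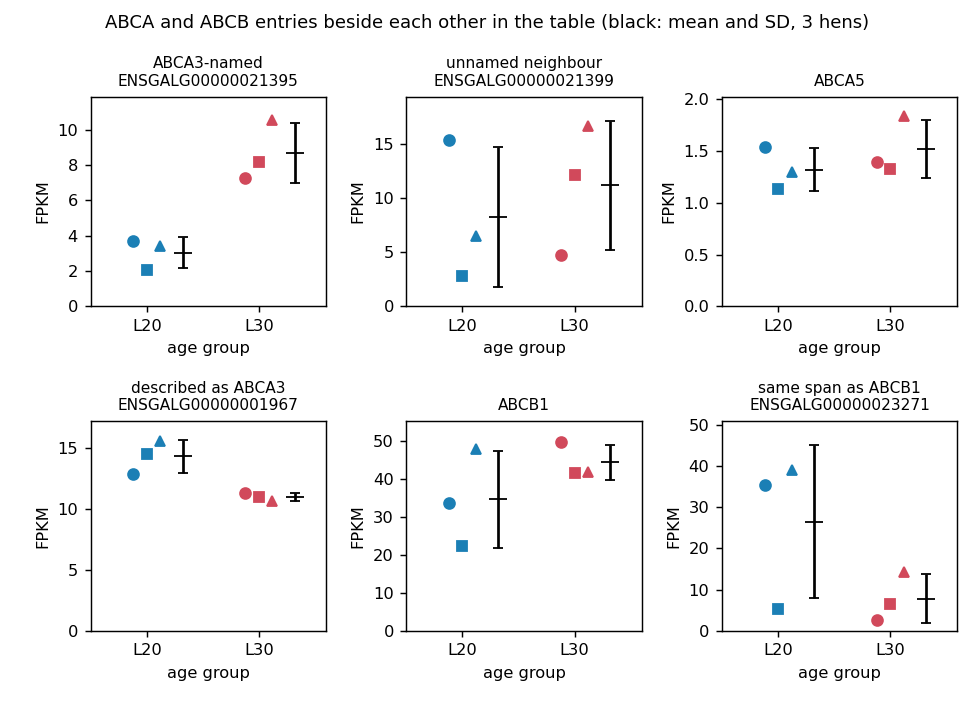
FPKM on the vertical axis of 3 entries on chromosome 18 (the gene named ABCA3, its unnamed neighbour and ABCA5), the chromosome 14 gene described as ABCA3, ABCB1 and the unnamed entry with the span of ABCB1, each panel with its own scale from 0. Circle, square and triangle are hens 1, 2 and 3 (blue L20, red L30), and the black mark is the mean and SD of 3 hens. The gene named ABCA3 was higher and the chromosome 14 gene lower in each laying hen, and the groups overlapped in the other 4 panels.

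ABCA1, the exporter that passes cholesterol and phospholipid to apolipoprotein A-I, had the highest mean of the subfamily. It lay at 8.18, 7.43 and 9.14 FPKM in L20 hens 1, 2 and 3 and at 10.1, 6.005 and 6.08 FPKM in L30 hens 1, 2 and 3. L30 hen 1 was the highest of the 6 and the other laying hens the lowest, for a change of −0.17 on the log2 scale (95% confidence interval −0.67 to 0.33). Without L30 hen 1 the change was −0.39 and was called (limma, adjusted p = 0.214). ABCA2 ran from 3.85 to 5.08 FPKM with overlapping groups.

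The ABCA genes known in mammals from other tissues were low. ABCA12, the lipid transporter of the skin barrier, ranged 43.5-fold over the 6 hens, with a wide spread within both groups. It stood at 1.16, 0.0440 and 0.623 FPKM in L20 hens 1, 2 and 3 and at 0.0267, 0.840 and 0.919 FPKM in L30 hens 1, 2 and 3, or 212, 10 and 125 against 6, 105 and 130 reads. L20 hen 2 and L30 hen 1 were the low ones, and their libraries were the deepest, with 21446473 and 21570330 recovered reads in all. Both were the lowest of their group in 13.3% of all tested genes and in 3 of the 24 tested members (12.5%). The part of depth in the ABCA12 values was not tested. ABCA7 lay at 0.134 to 0.434 FPKM. ABCA4, the retinal transporter, stood at 0.0196, 0.0467 and 0.0176 FPKM in L20 hens 1, 2 and 3 and at 0.0212, 0.00950 and 0.0417 FPKM in L30 hens 1, 2 and 3, with overlapping groups and 1 to 9 reads per hen. The table gives its span also to TECR.

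None of the 3 reported ABCB genes was called. ABCB1, the drug exporter P-glycoprotein, lay at 33.7, 22.4 and 47.9 FPKM in L20 hens 1, 2 and 3 and at 49.9, 41.5 and 41.9 FPKM in L30 hens 1, 2 and 3. The groups overlapped through L20 hen 3, and the log2 fold change was 0.41 (95% confidence interval −0.26 to 1.07, limma, adjusted p = 0.427). Without L20 hen 3 it was 0.67 and was called (limma, adjusted p = 0.257), and without L20 hen 2 it was 0.13.

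ABCB1 shares its span, chromosome 2 from 20547213 to 20632812, with the unnamed ENSGALG00000023271. That entry lay at 35.3, 5.20 and 38.9 FPKM in L20 hens 1, 2 and 3 and at 2.60, 6.44 and 14.3 FPKM in L30 hens 1, 2 and 3. L20 hens 1 and 3 were high and the other 4 hens low, with a log2 fold change of −1.48 (95% confidence interval −3.53 to 0.57). RefSeq GRCg7b lists a pair of genes, ABCB1LA and ABCB1, at this place between CROT and RUNDC3B. How reads were divided between the paired entries is not stated in the sources used here, so the level of each is uncertain. Their likeness in sequence was not tested.

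ABCB10, a mitochondrial member linked to haem synthesis, ranged from 5.85 to 8.21 FPKM, and the lysosomal peptide transporter ABCB9 from 1.68 to 3.20 FPKM. The groups overlapped in both, with log2 fold changes of 0.08 (95% confidence interval −0.27 to 0.43) and 0.10 (−0.35 to 0.55).

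Among the ABCC genes 1 of 8 tested was called, and it was lower. Over all tested genes 22.7% were called, 11.7% of them as lower in laying hens and 11.0% as higher. ABCC1, an exporter of glutathione conjugates and leukotrienes, lay at 2.49, 2.60 and 2.32 FPKM in L20 hens 1, 2 and 3 and at 1.82, 1.23 and 1.36 FPKM in L30 hens 1, 2 and 3. The groups did not overlap, and the ratio of means was 0.595. The log2 fold change was −0.50 ± 0.13 (limma, Benjamini-Hochberg adjusted p = 0.0885), and the gene stayed called whichever hen was left out. The macrophage, endothelial and lymphocyte marker sums given beside ABCG1 were lower in the same hens, and their part in the ABCC1 values was not tested.

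ABCC2, the canalicular exporter of bilirubin glucuronides and other conjugates, had the highest mean of the subfamily. It lay at 23.7, 16.0 and 33.2 FPKM in L20 hens 1, 2 and 3 and at 28.4, 36.6 and 22.7 FPKM in L30 hens 1, 2 and 3. The groups overlapped, at a log2 fold change of 0.29 (95% confidence interval −0.43 to 1.01). ABCC3, which exports conjugates towards the blood, lay at 2.01 to 3.02 FPKM in juvenile and 1.47 to 2.42 FPKM in laying hens. Its change of −0.30 was not called (limma, adjusted p = 0.367), but without L30 hen 1 it was −0.44 and was (adjusted p = 0.244).

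A further 3 ABCC genes had groups that did not overlap and were not called. Among all tested genes 30.0% had groups that did not overlap. ABCC5, an exporter of cyclic nucleotides, lay at 19.3 to 23.1 FPKM in juvenile and 24.0 to 31.1 FPKM in laying hens (log2 fold change 0.33 ± 0.15, limma, adjusted p = 0.254). On recovered reads it was called under edgeR (log2 fold change 0.39, adjusted p = 0.185) and not under DESeq2 (0.38, adjusted p = 0.255). Although ABCC5 had an FPKM close to that of ABCC2, only 204 to 458 reads per hen lay behind it, while ABCC2 had 1950 to 3818. The gene length that reads and FPKM together imply was 0.712 kb for ABCC5 and 6.24 kb for ABCC2 (medians over the hens). The FPKM of ABCC5 thus rests on a short gene model, and its rank beside longer genes is uncertain.

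ABCC4, another cyclic nucleotide and bile salt exporter of the blood-facing membrane, lay at 1.49 to 2.07 FPKM in juvenile and 1.15 to 1.46 FPKM in laying hens (log2 fold change −0.28 ± 0.13, limma, adjusted p = 0.270). ABCC6, which in mammals lets the liver release ATP and whose loss leads to calcification of soft tissue, was the steadiest of them. It lay at 18.9 to 19.1 FPKM in juvenile and 16.1 to 18.5 FPKM in laying hens, a change of −0.11 on the log2 scale (95% confidence interval −0.38 to 0.16) from 1320 to 2477 reads per hen.

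The remaining ABCC genes were low and the groups overlapped. ABCC10 ran from 1.31 to 1.56 FPKM. ABCC8 and ABCC9, which are regulatory subunits of ATP-sensitive potassium channels rather than pumps, ran from 0.576 to 1.93 FPKM and from 0.317 to 2.35 FPKM. L20 hen 1 had the 2.35 FPKM of ABCC9, and the other 5 hens were at or below 0.862. Markers of mural and stellate cells, a list with 11 tested genes of which 2 were lower, summed to 121.6 to 173.6 FPKM in juvenile and 95.04 to 153.4 FPKM in laying hens.

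The ABCD subfamily had the highest summed FPKM of the 7 in every hen, at 70.5 to 163 FPKM in juvenile and 120 to 180 FPKM in laying hens. ABCD3, the peroxisomal membrane protein PMP70 that takes up branched-chain acyl-CoA and bile acid intermediates, lay at 128, 47.4 and 85.5 FPKM in L20 hens 1, 2 and 3 and at 85.4, 126 and 89.5 FPKM in L30 hens 1, 2 and 3. The spread among juvenile hens covered all laying hens, and the log2 fold change was 0.29 (95% confidence interval −0.61 to 1.19). Without L20 hen 2, the lowest, it was −0.09.

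ABCD2, the peroxisomal transporter of very-long-chain acyl-CoA, lay at 12.1 to 20.5 FPKM in juvenile and 17.1 to 37.6 FPKM in laying hens. L30 hens 2 and 3 were above all juvenile hens and L30 hen 1 was among them. The log2 fold change of 0.67 ± 0.32 was not called (limma, adjusted p = 0.272). It was called without L30 hen 1 (0.97, adjusted p = 0.150). On recovered reads it was called in edgeR (0.81, adjusted p = 0.204) and in DESeq2 (0.80, adjusted p = 0.142). ABCD3 exceeded ABCD2 in each hen, by a ratio of FPKM of 3.91 to 6.25 in juvenile and 3.17 to 5.01 in laying hens.

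ABCD4, the lysosomal exporter of cobalamin (vitamin B12), lay at 14.6, 11.0 and 13.2 FPKM in L20 hens 1, 2 and 3 and at 17.4, 16.8 and 19.7 FPKM in L30 hens 1, 2 and 3. Each laying hen was above each juvenile hen, and the mean rose 1.39-fold. The log2 fold change was 0.45 ± 0.14 (limma, Benjamini-Hochberg adjusted p = 0.136), and the gene was no longer called without L30 hen 3 (0.39). The table gives the span of ABCD4 also to the unnamed ENSGALG00000010225, at 8.88 to 28.9 FPKM with overlapping groups, and the division of reads between them is uncertain.

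Of the ABC proteins that act in translation, ABCF2 was called at the edge of the threshold. It lay at 7.09, 9.03 and 6.96 FPKM in L20 hens 1, 2 and 3 and at 5.86, 5.55 and 6.41 FPKM in L30 hens 1, 2 and 3. The groups did not overlap, at a ratio of means of 0.772. The log2 fold change was −0.32 ± 0.13 (limma, adjusted p = 0.219), and the gene was no longer called when any 1 of the 6 hens was left out (−0.38 to −0.21).

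ABCF3 lay at 14.6, 18.5 and 16.5 FPKM in L20 hens 1, 2 and 3 and at 15.0, 13.6 and 15.7 FPKM in L30 hens 1, 2 and 3, with overlapping groups (log2 fold change −0.15, 95% confidence interval −0.47 to 0.17). ABCE1, which splits ribosomes into subunits for recycling, lay at 22.3, 26.7 and 22.2 FPKM in L20 hens 1, 2 and 3 and at 22.6, 23.5 and 21.4 FPKM in L30 hens 1, 2 and 3. Its change was −0.07 on the log2 scale (−0.38 to 0.24), and 0.01 without L20 hen 2. ABCE1 shares its span with OTUD4 in the table. Of 12 listed partners in ribosome recycling and initiation, all were tested and limma called 0 at the unadjusted threshold, beside 22.7% of all tested genes.

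Across the 18 tested members that were not called, the half-width of the 95% confidence interval was 0.26 to 0.90 on the log2 scale, and no limit exceeded 1.44 in size. A p above the threshold does not show that these genes were the same in both groups.

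**Figure D5:**
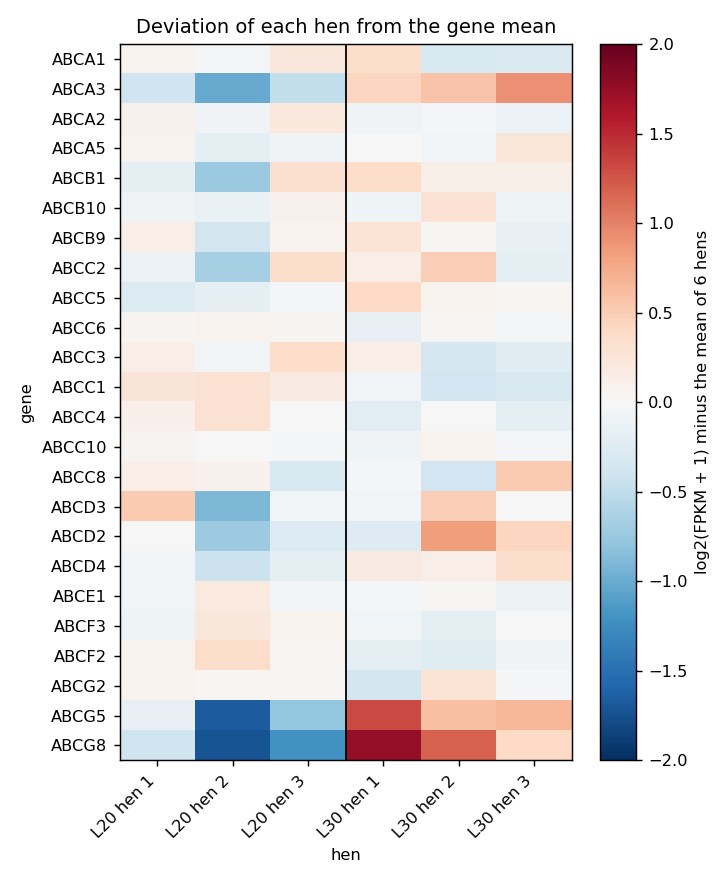
Deviation of each hen from the mean of the 6 hens, as log2(FPKM + 1), for the 24 tested members (rows) with hens as columns and a line between the groups. Red is above and blue below the mean of the gene. ABCG5, ABCG8 and the gene named ABCA3 changed colour between the groups, and L20 hen 2 held the darkest blue cells.

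L20 hen 2 stood apart among the juvenile hens. It had the lowest FPKM of the 6 hens in 11 of the 24 tested members (45.8%), among them ABCB1, ABCC2, ABCD2, ABCD3, ABCD4, ABCG5, ABCG8 and the gene named ABCA3, and the highest in 6 (25.0%). Over all tested genes it was the lowest in 19.2% and the highest in 24.9%. Its library was 1 of the deepest, with 21446473 recovered reads. Without L20 hen 2 the log2 fold changes of ABCG5, ABCG8 and the gene named ABCA3 stayed above 1, and each was called.

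Genes around the sterol transporters moved in both directions. Of 12 tested genes in a list of partners of cholesterol export, limma called 3 higher and 3 lower at the unadjusted threshold. Over all tested genes it called 11.0% higher and 11.7% lower. NPC2 and NPC1, which release cholesterol from lysosomes, were higher by 0.87 and 0.79 on the log2 scale (limma, adjusted p = 0.111 and 0.129). STARD4, a cholesterol carrier of the cytosol, was higher by 1.90 (limma, adjusted p = 0.113). APOA1, the acceptor for ABCA1, had a log2 fold change of −1.61 (limma, adjusted p = 0.0795). LCAT, which esterifies cholesterol on lipoproteins, had −1.39 (limma, adjusted p = 0.132). SOAT1, which esterifies it in the cell, had −1.04 (limma, adjusted p = 0.0483, SDE). Of 16 tested entries in a list of iron-sulphur and peroxisome partners, 0 were called higher and 2 lower. These were FECH, the last enzyme of haem synthesis (−0.42, limma, adjusted p = 0.135), and ACAA1, the peroxisomal thiolase (−1.72, limma, adjusted p = 0.101).

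The table holds 3 listed ABC proteins under other names, of which 2 were tested. TAP1 and TAP2 form the peptide transporter that loads class I molecules of the major histocompatibility complex. TAP1 lay at 7.62, 10.9 and 14.7 FPKM in L20 hens 1, 2 and 3 and at 7.16, 3.59 and 5.10 FPKM in L30 hens 1, 2 and 3. TAP2 lay at 22.2, 30.5 and 38.1 FPKM in L20 hens 1, 2 and 3 and at 17.2, 12.1 and 15.2 FPKM in L30 hens 1, 2 and 3. Both were lower in each laying hen, with log2 fold changes of −0.94 ± 0.29 (limma, adjusted p = 0.129) and −0.96 ± 0.23 (adjusted p = 0.0770). The study's SDE genes by Cuffdiff include TAP2. The lymphocyte and macrophage marker sums were lower in the same hens, and their part was not tested. CFTR, a chloride channel of the same superfamily, lay at 0.133 to 0.324 FPKM, below the filter.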

How the data were processed

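Liver RNA of 6 hens was sequenced, 1 library per hen. The authors mapped reads to galGal4 with TopHat2 2.0.9 and deposited FPKM per gene and hen from Cufflinks. The deposited table also holds a count divided by 1 factor per library, a scaled signal. At least 99.789% of values under 40 were whole multiples of 1 read (tolerance 0.01), which gave the recovered reads. In 3 libraries 1 or 2 values lay below 1 read. The strand setting of the counting is not given in the sources used here.

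limma 3.58.1 (R 4.3.3) with a trend in eBayes was fitted to log2(FPKM + 1) of all genes averaging at least 1 FPKM. Members below it appear as values, with the fit without a filter named where used. Alternatives changed the pseudocount (0.1, 0.01), filter, scaling, moderation and block, left out each hen, or used edgeR 4.0.16 and DESeq2 1.42.0 on recovered reads. The edgeR fit was run after edgeR's own filter on reads. The main limma fit, edgeR and DESeq2 were tested on simulated data, and the other alternatives were not. Tables were handled with Python 3.11.15 and pandas 2.3.3.

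Values per hen are printed for called members, for members below the filter whose groups did not overlap, for the highest of each subfamily and for members that share a span; ABCA12, TAP1, TAP2 and the unnamed entries beside the gene named ABCA3 were added after their values were seen. Members and lists were chosen with earlier results of these data known. Gene names are those of the table, and RefSeq GRCg7b served for names and gene order only. Of the 33 genes matching the name, 3 are not reported here.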

Additional observations from a re-analysis of the deposited data

How the results depend on the processing

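Of 233 values for 13 single genes under alternative settings, 211 kept their direction and side of the threshold, 17 were no longer and 2 newly called, and 3 changed sign. Over the fits that lacked 1 hen, the change ran from −0.09 (without L20 hen 2) to 0.62 for ABCD3, from −0.11 to 0.01 (without L20 hen 2) for ABCE1 and from −0.25 to 0.07 (without L30 hen 1) for ABCG2, and these 3 changes of sign were in genes that were not called. The gene named ABCA3, ABCG5 and ABCG8 kept an unadjusted p of 0.05 or less under all 18 alternatives and ABCC1 under all 17 that tested it. ABCD4 lost it under quantile normalization and without L30 hen 3, and ABCF2 under 15 of 18. The number of members called was 6 and ranged from 4 to 8 with a hen left out, and median-ratio scaling of the FPKM gave 5 higher and 1 lower in place of 4 and 2. Over all 9732 tested genes the calls were 2213 in the reported fit and 1569 to 2274 with a hen left out. Median-ratio scaling gave 1268 genes higher and 951 lower in place of 1070 and 1143. The number of SDE members was 1 in the reported fit and 0 to 1 with a hen left out, where the 1 was ABCG8 without L30 hen 3. Over all 9732 tested genes 268 were SDE in the reported fit and 64 to 386 with a hen left out. At a mean FPKM of at least 5, 2 members were SDE (the gene named ABCA3 and ABCG8), beside 240 of 5771 genes. The SDE members were 3 in edgeR on recovered reads (these and ABCG1) and 4 in DESeq2 (ABCG5 as well), against 3.83% and 6.24% of the genes tested. The juvenile means of the gene named ABCA3, ABCG8 and ABCG5 were 3.04, 2.11 and 3.62 FPKM. They passed the filter of 5 FPKM only through the laying hens, so that setting adds no support for their rise. Without a filter, where 1.32% of all genes were SDE, the 1 SDE member was ABCG1. Over all alternatives the adjusted p ran from 9.35e-06 to 0.124 for the gene named ABCA3, from 5.02e-05 to 0.172 for ABCG8, from 0.00188 to 0.194 for ABCG5 and from 0.0254 to 0.215 for ABCC1. The cause of these changes was not tested.

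With the replicate number as a block, 5 members were called and 0 were SDE, beside 1864 and 54 of all 9732 tested genes. Hens with the same number had correlated deviations of 0.0166, 0.0117 and 0.0943, so the numbers were not taken to pair the hens.

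With 3 hens per group, members with a wide spread between hens could not be resolved, as the confidence intervals show. ABCA4, ABCA7, ABCG1 and ABCG4 rest on fewer than 100 reads in every hen, and levels of entries that share a span depend on how the reads were divided.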
